A study of Rattus norvegicus with 12 samples.

Results

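The 10 genes described here encode the sensors that report damage from an injured axon. They were taken by symbol from the deposited mRNA expression table, where Map3k12, Map3k13, Map2k4, Map2k7, Mapk8, Mapk9, Mapk10, Mapk8ip3, Sarm1 and Nmnat2 each had 1 row among 22714 genes, and from the deposited peak lists by the same symbols.

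When an axon is damaged, dual leucine zipper kinase (DLK, encoded by Map3k12) and its relative LZK (Map3k13) act as the upstream kinases of a relay. They phosphorylate the kinases MKK4 and MKK7, which activate the c-Jun N-terminal kinases (JNK), and the signal carried back to the nucleus changes transcription through c-Jun and ATF factors. In the intact axon, NMNAT2, a short-lived enzyme that makes NAD, holds back SARM1, an enzyme that destroys NAD and drives axon degeneration. In retinal ganglion cells, whose axons form the optic nerve, DLK signalling is known for its part in cell death after nerve injury. Much of this signalling works through phosphorylation and protein turnover, which were not measured here.

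Male Sprague-Dawley rats of 7 to 8 weeks underwent traumatic optic neuropathy (TON), in which the nerve was clamped 2 mm behind the eye for 10 s with forceps of 40 g, or sham surgery without the clamp. Retinas were collected at 12 h and those of 4 rats were pooled for each sample, with 3 TON samples (TON 4 to 6) and 3 sham samples (sham 1 to 3). Each sample gave an input RNA library and a library enriched with an antibody against N6-methyladenosine (m6A), 12 libraries in all. The p-values below measure the spread between these pooled samples.

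The input libraries held an estimated 3163301 to 4759817 fragments in TON and 4195980 to 4735931 in sham. The labelled tissue was checked against defining markers, and all 13 markers of retinal ganglion cells were detected. The summed level of those 13 markers was 685 to 735 FPKM in TON and 607 to 707 FPKM in sham. Markers listed for other tissues were also detected, at levels that differed between libraries, and their source was not tested. The summed level of 6 ocular surface markers was 2.80 to 18.7 FPKM in TON and 14.2 to 186 FPKM in sham, with the highest sum in sham 1. The summed level of 9 lens, muscle and blood markers, most of it from lens crystallins, was 1838 to 2694 FPKM in TON. In sham it was 2181 to 4970 FPKM, again highest in sham 1. Of that list, the skeletal muscle actin Acta1 was picked after its values were seen. It was at 24.3 FPKM in TON 5, against 2.65 to 8.62 FPKM in TON 4 and 6 and 1.79 to 2.22 FPKM in sham. Gfap, the intermediate filament of reactive glia, rose to 39.1, 36.5 and 31.0 FPKM in TON, against 10.1, 7.28 and 9.58 FPKM in sham (log2 fold change 1.87, limma adjusted p = 0.0102). Without sham 1, TON 4 or TON 5 in turn, the adjusted p of Gfap was 0.0513, 0.0795 and 0.0643.

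No difference in mRNA level between TON and sham retinas was detectable for the 10 axon injury genes. None passed the threshold, an adjusted p of 0.05 in limma with Benjamini-Hochberg adjustment over 15900 genes, a test that called 0.044% of all genes (0.0377% higher and 0.00629% lower in TON). The count of members at an unadjusted p under 0.05 was also 0 of 10, beside 7.06% higher and 3.29% lower of all genes tested. The median log2 fold change of the 10 genes was 0.05, beside 0.06 over all genes tested, with 6 of the 10 above 0 and 58.7% of all genes above 0. The summed level of the 10 genes was 288 to 297 FPKM in TON and 271 to 289 FPKM in sham. FPKM scales fragments to the length of the transcript and the depth of the library, and all fold changes are on the log2(FPKM + 1) scale. In bulk retina, fewer cells of a type and less RNA per cell cannot be told apart.

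**Figure D1:**
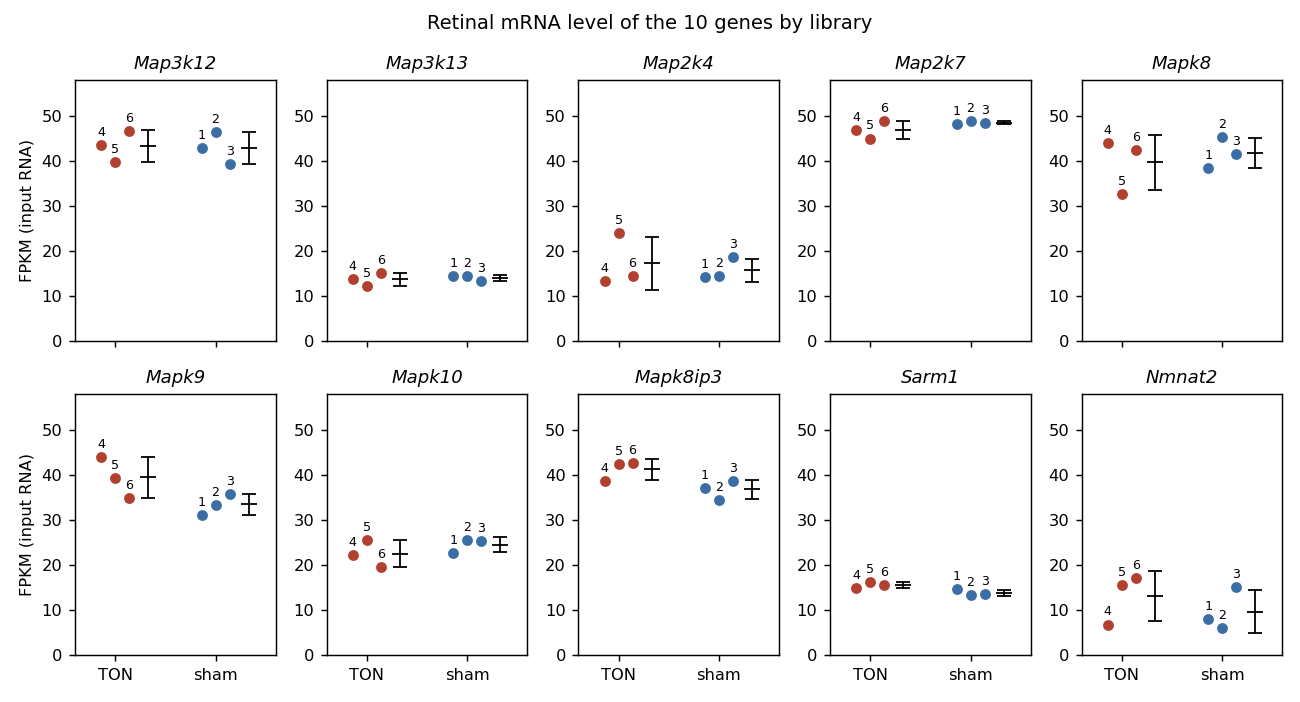
FPKM of the 10 genes in the input library of each sample (numbered points), with TON left and sham right, and the mean with SD of 3 libraries beside each group. Sarm1 is the gene whose groups do not overlap (14.9 to 16.2 FPKM in TON and 13.2 to 14.6 FPKM in sham), and Nmnat2 spreads most between libraries.

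Among the upstream kinases, Map3k12 had 43.4, 39.8 and 46.7 FPKM in TON 4, 5 and 6, against 42.9, 46.4 and 39.3 FPKM in sham 1, 2 and 3. The groups overlapped over nearly their whole range, and the log2 fold change was 0.02 (95% interval -0.23 to 0.26, adjusted p = 0.973). In linear terms the interval ran from 0.850-fold to 1.20-fold. Map3k13, the close relative that can act beside DLK, had 13.6, 12.1 and 15.1 FPKM in TON, against 14.3, 14.5 and 13.2 FPKM in sham. Its groups overlapped too (log2 fold change -0.04, 95% interval -0.38 to 0.30, adjusted p = 0.936). In the files Map3k13 shares its listed locus with 5 other genes, so its fragments are less certain than those of the other members.

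Map2k7, which encodes MKK7, was the most abundant member and the steadiest, with 46.8, 44.9 and 48.9 FPKM in TON, against 48.3, 48.8 and 48.4 FPKM in sham. The highest library was only 1.09-fold above the lowest, and the log2 fold change was -0.05 (95% interval -0.25 to 0.15, adjusted p = 0.858). Map2k4, which encodes MKK4, had 13.3, 23.9 and 14.3 FPKM in TON, against 14.1, 14.4 and 18.7 FPKM in sham. TON 5 stood above all others for this gene. It was also the library with the highest Acta1, and a link between the 2 was not tested. Map2k4 rested on an estimated 38 to 102 fragments per library. The log2 fold change of 0.09 (95% interval -0.46 to 0.63, adjusted p = 0.911) became -0.23 without sham 1 and TON 5.

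None of the 3 JNK genes passed the test. Mapk9, which encodes JNK2, had 44.1, 39.3 and 34.9 FPKM in TON, against 31.1, 33.4 and 35.8 FPKM in sham. TON 4 and 5 lay above every sham library and TON 6 lay within the sham range. The log2 fold change was 0.23 (95% interval -0.05 to 0.50, adjusted p = 0.558), the lowest adjusted p of any member.

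Mapk8, which encodes JNK1, had 44.0, 32.7 and 42.3 FPKM in TON, against 38.4, 45.2 and 41.5 FPKM in sham. TON 5 was the lowest library and the other 5 overlapped (log2 fold change -0.08, 95% interval -0.39 to 0.23, adjusted p = 0.850). Mapk10, which encodes the neuron-enriched JNK3, had 22.2, 25.6 and 19.6 FPKM in TON, against 22.7, 25.5 and 25.4 FPKM in sham. The groups overlapped through TON 5, with a log2 fold change of -0.13 (95% interval -0.44 to 0.18, adjusted p = 0.762). Whether Mapk9 differed in its response from Mapk8 or Mapk10 was not tested.

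Mapk8ip3 encodes JIP3, the scaffold that couples DLK and JNK to axonal transport. It had 38.6, 42.5 and 42.6 FPKM in TON, against 37.1, 34.5 and 38.7 FPKM in sham. TON 4 lay just inside the sham range, and the log2 fold change was 0.16 (95% interval -0.07 to 0.39, adjusted p = 0.612).

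Sarm1 had 14.9, 16.2 and 15.4 FPKM in TON, against 14.6, 13.2 and 13.5 FPKM in sham. Every TON library lay above every sham library, which was true in the same direction of 10.8% of all genes tested and of no other member. The log2 fold change was 0.16 (95% interval -0.14 to 0.47), and the difference did not pass the test (adjusted p = 0.699).

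Nmnat2 had 6.76, 15.5 and 17.0 FPKM in TON, against 7.89, 5.93 and 15.0 FPKM in sham. Both groups held low and high libraries, and the highest was 2.86-fold above the lowest. Among the 5599 genes with a mean level between those of the lowest and highest member, the median ratio of highest to lowest library was 1.47 and 4.68% reached that of Nmnat2. Nmnat2 is that lowest member, so it was compared with genes as abundant or more so, not matched in fragments. The gene rested on an estimated 23 to 79 fragments per library, fewer than Map3k12 with 477 to 754. TON 4 with 23 fragments had an exact Poisson 95% interval of 14.6 to 34.5 fragments and TON 6 with 68 fragments one of 52.8 to 86.2 fragments. These intervals treat the estimated fragments as counts, although the scaled values did not pass the check for whole reads. They are not scaled to library depth, and they cover counting error only. With those limits, they did not overlap. The log2 fold change of 0.41 had the widest interval of the 10 genes (95% interval -0.53 to 1.35, adjusted p = 0.751), which left room for anything from 0.692-fold to 2.55-fold. Leaving out each library in turn moved it between 0.15 (without sham 2) and 0.79 (without TON 4), with 0.19 without TON 6, 0.25 without TON 5 and 0.75 without sham 3.

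**Figure D2:**
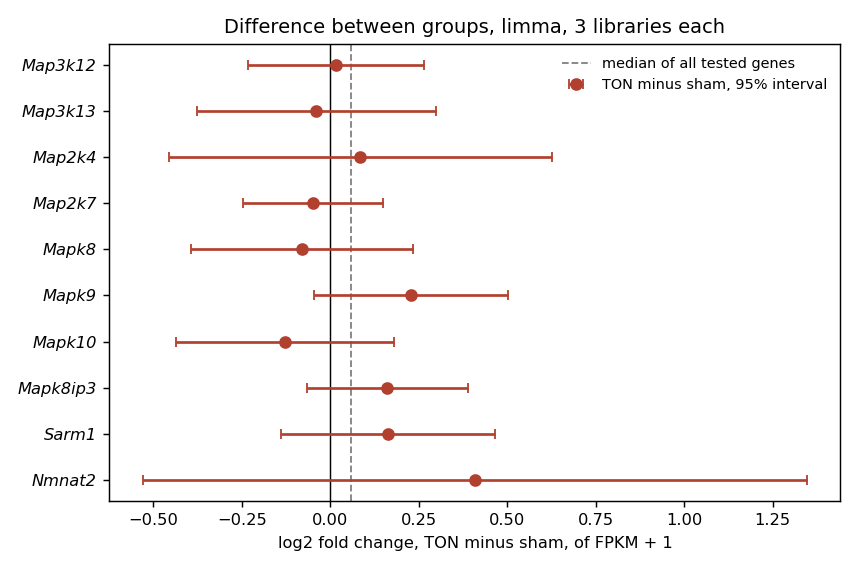
Log2 fold change of FPKM + 1 (TON minus sham) of the 10 genes, with 95% intervals from limma on 3 libraries per group, and the median of all 15900 genes as a dashed line. All 10 intervals include 0, and that of Nmnat2 is the widest (-0.53 to 1.35).

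Since FPKM is scaled to transcript length, the levels of the 10 genes can be set in order over all 6 libraries. Map2k7 (47.7 ± 1.53 FPKM, SD, n = 6) came first, followed by Map3k12 (43.1 ± 3.14), Mapk8 (40.7 ± 4.55), Mapk8ip3 (39.0 ± 3.14) and Mapk9 (36.4 ± 4.64). A gap followed, in which the ranges of Mapk9 and Mapk10 (23.5 ± 2.44) did not overlap. Map2k4 (16.4 ± 4.11), Sarm1 (14.6 ± 1.14), Map3k13 (13.8 ± 1.08) and Nmnat2 (11.3 ± 5.00) formed the lower end. All neighbours other than Mapk9 and Mapk10 had overlapping ranges, so their order is not fixed by these data, although Map2k7 lay above Map3k12 and Mapk10 above Map2k4 in all 6 libraries. Over the same 6 libraries, the genes with a pattern of log2(FPKM + 1) most like that of Map3k12 among 12975 genes were RGD1310507, Polr3d and Kctd20 (Pearson r 0.966, 0.965 and 0.964). For Sarm1 they were Sec22c, Adrm1 and Pam (r 0.994, 0.994 and 0.991). With so many genes and only 6 points that share their libraries, values this high are a description.

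The wider JNK pathway was described by kinases, scaffolds, phosphatases and regulators other than the members. The list also holds genes of the related p38 kinases, Mapk11, Mapk12, Mapk13, Mapk14 and the upstream Map2k6, so it is not limited to JNK. Of 40 listed genes, 39 were in the table and tested, and 0 passed the threshold (4 higher and 1 lower at an unadjusted p under 0.05, beside 7.06% and 3.29% of all genes tested). The lower gene was Map2k6 and 1 of the higher genes was Mapk12, both p38 genes named with their values known. Their median log2 fold change was 0.08. Skp1 and Usp9x, the 2 most abundant genes of the list, belong to the machinery that sets the amount of DLK protein, Skp1 as a part of ubiquitin ligases and Usp9x as an enzyme that removes ubiquitin. Skp1 had 187, 188 and 139 FPKM in TON, against 167, 192 and 212 FPKM in sham (adjusted p = 0.737). Usp9x had 67.4, 68.2 and 70.3 FPKM in TON, against 62.8, 75.0 and 74.5 FPKM in sham (adjusted p = 0.901). Both overlapped between the groups. Mapk8ip2, which encodes the scaffold JIP2 and was picked after its values were seen, had 26.2, 23.2 and 26.1 FPKM in TON, against 20.3, 16.8 and 17.9 FPKM in sham. The groups were apart, but the gene did not pass (log2 fold change 0.43, adjusted p = 0.377). Separate groups were found for 7 genes of the list that were higher and 1 that was lower in TON, beside 10.8% and 5.33% of all genes.

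Genes that nerve injury induces through this pathway in other settings were looked at as its readout. Of 24 such genes, 23 were in the table and tested and 0 passed the threshold, with a median log2 fold change of 0.11. At an unadjusted p under 0.05, 4 were higher and 6 were lower, beside 7.06% higher and 3.29% lower of all genes tested. Separate groups were found for 3 genes that were higher and 6 that were lower in TON, beside 10.8% and 5.33% of all genes.

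Jun, the name-giving target of JNK, had 25.0, 29.0 and 83.6 FPKM in TON, against 33.5, 41.2 and 20.5 FPKM in sham. TON 6 alone stood high and the other TON libraries lay inside the sham range (log2 fold change 0.36, adjusted p = 0.794). Atf3, another early gene of injured neurons, had 2.77, 3.82 and 46.0 FPKM in TON, against 8.18, 15.2 and 6.45 FPKM in sham. Again TON 6 was far above the rest, while TON 4 and 5 were the lowest of all 6 libraries (log2 fold change -0.12, adjusted p = 0.973). Without TON 6 the log2 fold change of Jun was -0.17 and that of Atf3 was -1.28.

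Fos, the partner of c-Jun in the AP-1 factor, had 12.0, 15.2 and 90.4 FPKM in TON, against 5.77, 4.48 and 3.48 FPKM in sham. All TON libraries were above all sham libraries, with TON 6 again the highest (log2 fold change 2.28, adjusted p = 0.378). Gadd45b, a stress-response gene, had 31.7, 30.0 and 80.4 FPKM in TON, against 18.4, 16.6 and 11.6 FPKM in sham, also with no overlap (log2 fold change 1.42, adjusted p = 0.348). Without TON 6 the log2 fold changes were 1.4 for Fos and 0.97 for Gadd45b. Jun, Atf3, Fos and Gadd45b were picked after their values were seen.

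Atf4, a stress-response factor and the most abundant of the 23 genes, had 479, 487 and 463 FPKM in TON, against 550, 573 and 535 FPKM in sham. Its target Ddit3, which encodes the pro-apoptotic factor CHOP, had 41.6, 36.1 and 53.6 FPKM in TON, against 56.5, 71.0 and 66.0 FPKM in sham. Both had separate groups, with log2 fold changes of -0.21 (adjusted p = 0.479) and -0.56 (adjusted p = 0.366), and neither passed. Trib3, Chac1, Sesn2 and Bbc3, other stress-response and cell death genes picked after their values were seen, also had every TON library below every sham library, with adjusted p-values of 0.401, 0.414, 0.434 and 0.475.

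**Figure D3:**
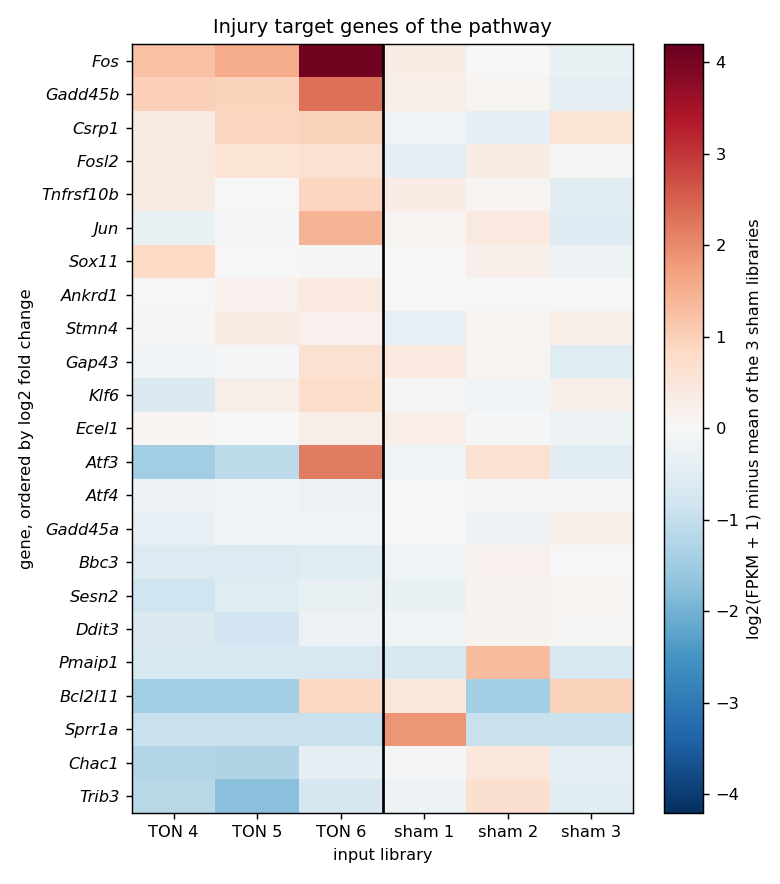
Log2(FPKM + 1) of each of the 23 tested injury target genes in each input library minus the mean of the 3 sham libraries, with the TON libraries left of the sham libraries and genes ordered by log2 fold change. Fos, Gadd45b, Jun and Atf3 are highest in TON 6, while Ddit3, Sesn2, Chac1 and Trib3 are below the sham mean in all 3 TON libraries.

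Around Sarm1 and Nmnat2, 25 genes of NAD metabolism and axon survival were listed, of which 23 were tested and 0 passed (2 higher and 0 lower at an unadjusted p under 0.05, beside the same 7.06% and 3.29%). The median log2 fold change was 0.12. Sirt2, an NAD-dependent deacetylase, had 75.4, 74.2 and 80.6 FPKM in TON, against 71.5, 60.8 and 67.4 FPKM in sham. The groups did not overlap, and the difference did not pass (log2 fold change 0.20, adjusted p = 0.511). Of the 23 genes, 3 had separate groups that were higher and 2 that were lower in TON, beside 10.8% and 5.33% of all genes. Stmn2, a microtubule regulator that is lost early from injured axons, had 55.4, 62.8 and 57.6 FPKM in TON, against 46.4, 57.9 and 58.2 FPKM in sham (adjusted p = 0.748). The other NMNAT enzymes, picked after their values were seen, were lower than Nmnat2 in mean level. Nmnat1, the nuclear form, averaged 6.39 ± 1.51 FPKM in TON and 7.53 ± 0.21 FPKM in sham, and Nmnat3, the mitochondrial form, 6.42 ± 1.06 FPKM in TON and 6.25 ± 3.65 FPKM in sham (SD, n = 3 each). Their adjusted p-values were 0.738 and 0.903.

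As the transcription factors at the end of the relay bind the cAMP response element (TGACGTCA, its own reverse complement) or the TPA response element (TGACTCA, or TGAGTCA on the other strand), the members' own promoters were searched for these letters. RefSeq windows of the rat assembly GRCr8, from 250 bases before to 50 after the transcription start, were found for 9 of the 10 genes. The first motif was in 2 of the 9 windows and in 1.83% of all 33469 windows. The second was in 0 of the 9 windows and in 4.63% of all windows. The 2 matches are shown 5′ to 3′ on the strand of the gene, with the motif in capitals.
Map3k13: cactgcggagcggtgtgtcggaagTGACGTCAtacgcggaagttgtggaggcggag
Mapk10: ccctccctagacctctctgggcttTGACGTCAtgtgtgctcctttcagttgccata
The stretch of Map3k13 lies at chr11:92739680-92739735 on the minus strand, with the motif starting 48 bases before the start, and that of Mapk10 at chr14:6802192-6802247 on the plus strand, with the motif starting 78 bases before it. A match describes letters only. Both genes were among those with a negative, uncalled log2 fold change above.

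The m6A data were read from the peaks that the authors called in each sample, each a stretch of transcript with more antibody-enriched than input reads. Peaks sharing at least 1 base were merged, and a region counted as gained if each of the 3 TON lists held a peak there and the sham lists held none, and as lost if it was the other way round. The 10 genes held 61 peaks in 19 regions, spread over 8 genes, with 9, 11 and 8 peaks in TON and 11, 8 and 14 peaks in sham. None of the 19 regions was gained and none was lost, beside 1.67% gained and 1.86% lost of all 24605 regions. All 6 lists shared 4 of the 19 regions, or 21.1%, beside 21.4% of all regions.

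**Figure D4:**
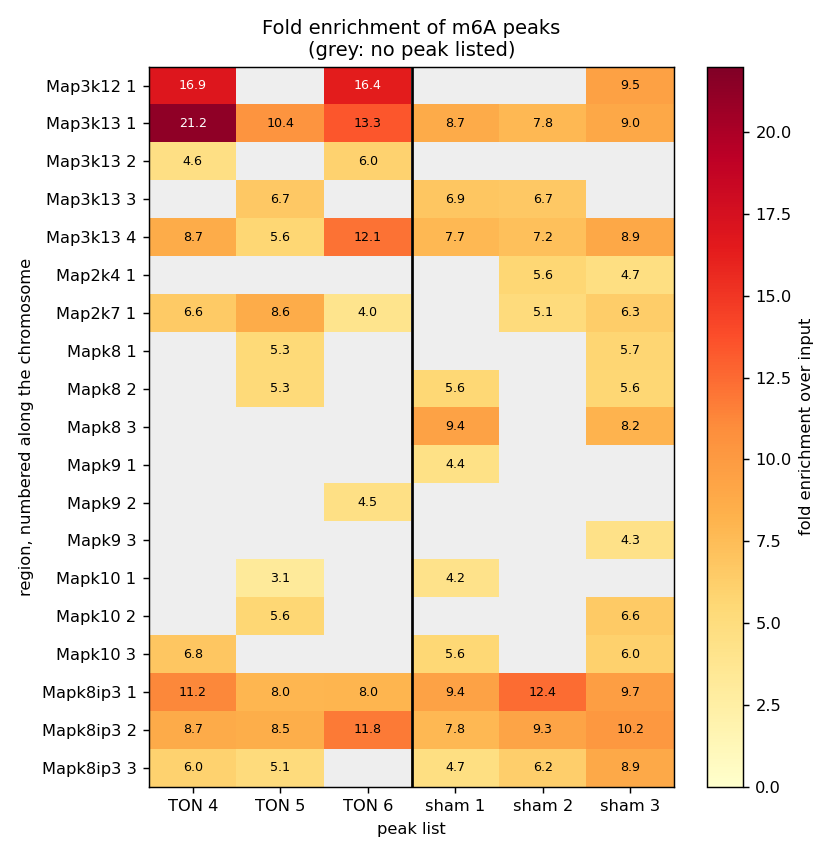
Fold enrichment over input of the 19 regions of the 10 genes (rows, numbered along the chromosome within each gene) in the 3 TON lists and the 3 sham lists (columns), with grey where no peak was listed. The 4 regions filled in all columns belong to Map3k13 and Mapk8ip3, and Sarm1 and Nmnat2 have no row.

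Sarm1 and Nmnat2 had no peak in any list. Of the genes in the members' range of level, 77.2% had a peak in at least 1 list, as did 8 of the 10 members. A peak in every list was held by 36.5% of those genes and by 2 of the 10 members, Map3k13 and Mapk8ip3. The number of peaks per gene did not separate the groups for any member, beside 6.52% of all 9329 genes with a peak. The lowest unadjusted p of a member was 0.4, for Map2k4 (exact two-sided permutation test, smallest possible p = 0.1), and all adjusted p-values were 1, as 3 against 3 lists cannot pass.

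The 4 regions found in every list were split between Map3k13 and Mapk8ip3. Regions of Map3k13 were given to it by symbol only, and 5 other genes share its listed locus. The first region of Map3k13, at chr11:85830850-85831216 in the coordinates of the files and at the 3′ edge of its listed locus, had fold enrichments of 21.2, 10.4 and 13.3 in TON, against 8.73, 7.82 and 8.98 in sham. Every TON list lay above every sham list. The same was true of 25.3% of the 5229 regions with 1 peak in each list, and the lists differed as a whole: their median fold enrichment over these regions was 12.8, 9.95 and 13.1 in TON and 8.71, 9.86 and 9.33 in sham. With each list centred on its median, the log2 difference of this region was 0.40 ± 0.28 (SE, limma adjusted p = 0.418), and its groups stayed apart like those of 13.3% of the regions. The fourth region of Map3k13, at chr11:85864548-85865107, had 8.66, 5.63 and 12.1 in TON, against 7.74, 7.24 and 8.95 in sham, and the groups overlapped.

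The first region of Mapk8ip3, at chr10:14102334-14102425, had fold enrichments of 11.2, 7.95 and 8.03 in TON, against 9.41, 12.4 and 9.70 in sham. The deposited values overlapped, but once each list was centred on its median all TON values were lower (log2 difference -0.57 ± 0.26, SE, adjusted p = 0.241), as in 10.5% of the regions. Its second region, at chr10:14105778-14105898, overlapped both before and after centring (log2 difference -0.27 ± 0.26, SE, adjusted p = 0.572). The remaining region, at the 5′ edge of the locus (chr10:14114866-14115183), was listed in all samples but TON 6. The test of fold enrichment was added after the data were seen, and it called 0.287% of the 5229 regions.

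Other regions came and went between samples of both groups. Map3k12 had 1 region, at chr7:141912062-141912301, with fold enrichments of 16.9 and 16.4 in TON 4 and 6, against 9.52 in sham 3, and no peak in the other lists. The files assign it to Map3k12, although its nearer edge lies 10901 bases upstream of the locus that the expression table gives for that gene. Map2k7 had 1 region at its 5′ edge (chr12:4707813-4707936), found in all 3 TON lists and in sham 2 and 3.

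A region of Map3k13 (chr11:85836382-85837147) was listed in TON 4 and 6 and in no sham sample. The reverse was seen for the region of Map2k4 (chr10:51976179-51976298) in sham 2 and 3, and for the region at the 5′ edge of Mapk8 (chr16:11662731-11662858) in sham 1 and 3. The deposited false discovery rates were 55.1% and 69.1% for Map3k13, 67.2% and 100% for Map2k4, and 25.4% and 91.0% for Mapk8. These 3 regions would count as 1 gained and 2 lost if 2 of 3 lists sufficed, a rule that calls 7.18% of all regions gained and 6.91% lost. The 3 regions of Mapk9 were each in a single list. Of the 3 regions of Mapk10, the longest, 979 bases at the 3′ edge of the locus, was in TON 4 and in sham 1 and 3.

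Among the wider lists, 5 regions of the JNK pathway list met the rule, of 140 regions in 33 genes, and their genes are named here with that outcome known. Gained regions lay in Map3k9, a mixed lineage kinase related to DLK, in Usp9x, and in Mycbp2 and Fbxo45, which together form the PHR1 ubiquitin ligase that acts on DLK and NMNAT2. The lost region lay in Skp1. That is 2.86% gained and 0.714% lost, beside 1.67% and 1.86% of all regions. The gained region of Usp9x (chrX:11324414-11324845) had fold enrichments of 10.9, 7.84 and 10.3 in TON, and it alone of the 5 kept a peak in every TON list when only peaks with a score of at least 100 were used. The gained regions of Mycbp2 (5.96, 3.67 and 6.97) and Fbxo45 (5.43, 5.77 and 8.11) were weaker. Mycbp2 mRNA, looked at after its values were seen, was 28.6, 25.3 and 26.2 FPKM in TON, against 32.2, 31.6 and 28.6 FPKM in sham (limma adjusted p = 0.569). The groups all but touched, with 28.55 FPKM in TON 4 and 28.58 FPKM in sham 3. Of all genes tested, 5.33% had every TON library below every sham library. In the list of NAD metabolism and axon survival, 0 of 31 regions were gained and 1 was lost, in the calpain gene Capn2, and in that of injury targets 0 of 30 changed by the rule.

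The false discovery rates deposited with the peaks of the 10 genes were 11.5% to 100%, with a median of 44.5%, beside 38.5% over all peaks. By list, the median over all peaks was 93.0% in sham 3, against 29.65% to 45.2% in the other lists. Sham 3 also held the most peaks of the 10 genes (14). A rate under 20% was given for 5 of the 61 peaks, or 8.20%, and for 23.4% of all peaks. The median fold enrichment of the 61 peaks was 6.87, beside 7.54 over all 79857 peaks. The read depth of the antibody-enriched libraries is unknown.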

How the data were processed

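The authors trimmed reads with cutadapt 1.9.3 and aligned them with HISAT2 2.0.4, and Cufflinks and Cuffdiff are named in the submitters' processing notes. Expression was deposited as FPKM for every gene and library. A further column of deposited values behaves as a signal of scaled fragments. Its low values were whole multiples of 1 step in 98.3% to 98.6% of cases per library (tolerance 0.1) once values under 0.5 of the step, which were 0.363% to 0.527% of the values above 0, were set aside, and depths were estimated from that step. The authors called peaks in each sample with MACS, and each deposited peak has a score (a multiple of the negative log10 of its p-value), a ratio to input called fold enrichment, a false discovery rate in percent and a length. For these rat reads the paper's methods cite a human build, so which build the coordinates follow could not be settled. The strand setting of the counting is not stated.

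Testing was on log2(FPKM + 1) of the 15900 genes whose mean reached 0.1 FPKM in TON or in sham, with limma 3.58.1 in R 4.3.3, with an intensity trend and two-sided p-values adjusted by Benjamini-Hochberg over all of them. In simulated data with 200 changed genes of 15900, a log2 change of 0.5 was recovered in 0% of them, a change of 1 in 35.5% and a change of 2 in 82.5%. False calls among the unchanged genes numbered 0, 0 and 14. Peaks were handled with pandas 2.3.3, SciPy 1.17.1 and NumPy 2.4.6 (Python 3.11.15), and peak numbers were compared by exact two-sided permutation tests. Promoter sequences came from RefSeq (GRCr8).

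All 10 members are named. Of each gene list the genes that passed are named, or the 2 most abundant where fewer than 2 passed, and other genes are marked as picked after their values were seen. The members and lists were chosen with earlier results of these data known. The JNK list holds 1 gene under an older symbol (Zak) and the NAD list holds 2 (Naprt1 and Mcart1). The alternatives were other pseudocounts, filters, scalings and trends, the scaled fragments, stricter peak sets and overlaps, and leaving out each sample. Leaving out sham 1 with TON 5 was added after the data were seen. A marker gene of the tissue check is not reported here.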

Additional observations from a re-analysis of the deposited data

How the results depend on the processing

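Under all 15 alternatives run for expression, 0 of the 10 members and 0 genes of the 3 pathway lists passed the threshold, and the lowest adjusted p of a member was 0.426. The number of genes called among all tested was 7, against 2 without a filter, 44 on scaled fragments and 3 to 15 without each sample in turn. Gfap kept its direction (log2 1.74 to 1.99) but lost its call under some alternatives (highest adjusted p = 0.208). Of the 10 members, 6 kept the sign of their fold change throughout. Map3k12 became -0.066 with median centring and -0.013 with quantile normalization, and without sham 1 and TON 5 the log2 fold changes of Map3k13, Map2k4, Stmn2 and Atf3 became 0.054, -0.23, -0.037 and 0.28. With each sample left out in turn they ranged from -0.044 to 0.074 for Map3k12, -0.11 to 0.037 for Map3k13, -0.17 to 0.23 for Map2k4, -0.16 to 0.051 for Mapk8, -0.12 to 0.0045 for Usp9x, -0.16 to 0.14 for the ganglion cell marker Sncg, -0.17 to 0.68 for Jun, -1.28 to 0.54 for Atf3 and -0.12 to 0.52 for Nmnat3. The cause was not tested.

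The count of member regions gained or lost was 0, against 3 with a peak in 2 of 3 lists, 2 without sham 1 and TON 5 and 0 to 1 without each sample in turn, where fewer lists are needed. The difference in peaks per gene turned to -0.33 for Map2k7 with a score of at least 100 and to -0.33 for Map3k13 with the same number of top peaks in each list, and ranged from -1.0 to 0.17 for Mapk10 with each sample left out. No paired analysis was possible because the TON and sham samples share no replicate numbers. A count test on recovered whole reads was not run, since the scaled column did not pass the check for whole reads. With 3 pooled samples a group, no simulated gene with a log2 change of 0.5 was called, so changes of that size could go uncalled here. The simulation concerns calls past the threshold and not the estimates of the members. The limma intervals given above for Map3k12, Map3k13, Map2k7, Mapk8, Mapk10, Mapk8ip3 and Sarm1 excluded a log2 change of 0.5 in either direction. Those of Mapk9, Map2k4 and Nmnat2 included a rise of 0.5.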

Other observations

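The peaks of different samples often had identical start and end positions. All 16 member regions found in 2 or more lists had the same coordinates in every list that held them, as did 85.8% of the 17664 such regions over all genes.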
